A study of Macaca fascicularis with 16 samples.

Results

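The 200 most abundant genes of the cynomolgus monkey lung are described here. They were chosen from the counts themselves, as the 200 of 27966 annotated genes with the highest mean counts per 1000000 assigned counts (CPM) over all 16 libraries. The choice used no age or sex label. The study sequenced RNA from lung tissue of Macaca fascicularis, a macaque, in 16 libraries, 4 from old and 4 from young animals of either sex. The labels give the age as old or young only and name no strain, genotype or treatment. They do not say whether the libraries of a group are separate animals, so a p-value measures the spread between libraries, which may be technical. Each library held 6529562 to 11718427 counts assigned to genes.

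A small part of all genes usually supplies a large share of the messenger RNA of a tissue. In lung these typically include surfactant proteins and secretory products of the epithelium, matrix proteins of the airway and vessel walls, globins from blood, and genes that every cell needs for translation and energy metabolism. Which of the 200 genes belong to these classes was not examined. The files give Ensembl identifiers without names, and the RefSeq gene table used here paired 0 of the 27966 with a symbol. For the same reason the lung label was not checked against marker genes. Genes are therefore named by identifier and by their rank in mean CPM. A gene's CPM grows with the length of its transcript as well as with the number of molecules, and no lengths were at hand, so ranks order genes by reads and levels of different genes are not compared.

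The 200 genes together held 25.8% to 31.0% of the assigned counts of a library (median 28.6%, n = 16). The 10 highest of them held 6.43% to 10.2% and the highest alone 1.5% to 3.16%. Ranks 11 to 50 held 7.91% to 9.24%, and ranks 51 to 200 held 10.5% to 12.6%. At these levels counting error is small. The lowest count of any member in any library was 37, and 196 of the 200 had at least 1000 counts in all 16 libraries. All 200 passed the count filter and were tested, among 15472 genes tested.

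Some libraries stood apart within the members. In a principal component analysis of the 200 scaled members, after group means were removed, the first component held 32.0% of the variance and placed young male 1 at 19.7, with the other libraries between -12.4 and 7.95. The second component held 16.7% and placed old female 1 at 16.9 and old male 3 at 8.39, with the others between -6.78 and 3.13.

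**Figure D1:**
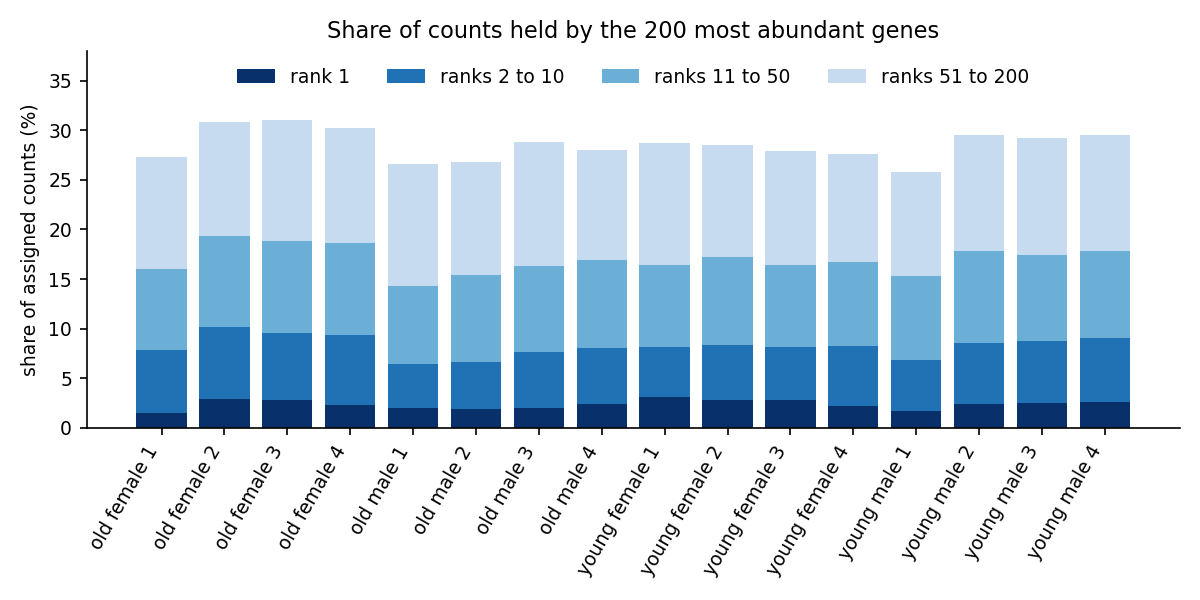
Bars give the share of assigned counts (%) held by the 200 most abundant genes in each of the 16 libraries, stacked by rank. Young male 1 has the lowest total (25.8%) and old female 3 the highest (31.0%).

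The share was 27.3%, 30.8%, 31.0% and 30.2% in old females 1 to 4, and 28.7%, 28.5%, 27.9% and 27.6% in young females 1 to 4. It was 26.6%, 26.8%, 28.8% and 28.0% in old males 1 to 4, and 25.8%, 29.5%, 29.2% and 29.5% in young males 1 to 4. Within each sex the old and young libraries overlapped through 1 library, old female 1 in females and young male 1 in males. Averaged over the sexes, the share was 0.335 percentage points higher in old lungs, which did not exceed the spread between libraries (exact permutation test of age within sex, two-sided, p = 0.653). The difference was 1.65 points in females and -0.981 points in males, with exact permutation p = 0.143 and 0.400, where 4 against 4 libraries can give no less than 0.0286. The age difference in males minus that in females was -2.63 points (exact permutation test, two-sided, p = 0.0735). Males lay 0.974 points below females (exact permutation p = 0.215). Adjusted over these 5 contrasts, no p was under 0.357. Without young male 1 the old minus young difference was -0.121 points (exact permutation p = 0.870), so its sign rests on that library. Without old female 1 the difference in females was 2.49 points (exact permutation p = 0.0286, the smallest that 3 against 4 libraries allow). Without young male 1 the difference in males was -1.89 points (exact permutation p = 0.0571). The age difference in males minus that in females was -3.47 points without old female 1 and -3.54 points without young male 1 (exact permutation p = 0.0180 and 0.0102). It was -4.81 points without old female 1, old male 3 and young male 1 (exact permutation p = 0.00143). These libraries were left out after their shares were seen and lie toward the other age class of their sex, and these p-values are not adjusted, so the values show how far the contrasts rest on single libraries and are not a separate result.

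Young male 1 also had the highest share of reads that matched no feature (29.9%, against 23.1% to 28.1% in the other 15 libraries) and the fewest assigned counts. Over the 16 libraries the members' share was lower where more reads matched no feature (Pearson r = -0.602, permutation p = 0.0121, adjusted over 2 relations 0.0243). Spearman's rho was -0.512 (permutation p = 0.0446, adjusted 0.0892). Without young female 4 and young male 1, the libraries farthest from the median of that measure, r was -0.374, so the relation rests on them. With the number of assigned counts r was 0.245 and rho 0.235 (permutation p = 0.359 and 0.379), and r was -0.134 without old female 1 and young male 1. The part of unassigned reads in the results below was not tested.

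Of the 200 genes, 113 were among the 200 highest of every library, 49 among those of 12 to 15 libraries, 32 among those of 8 to 11 and 6 among those of fewer. A library's own 200 highest genes held 167 (old female 1) to 184 (young male 4) of them. In all, 320 genes reached the 200 highest of at least 1 library. Ranked within each group, 164 of the 200 were among the 200 highest of all 4 groups. The values at the threshold lay close together: ENSMFAG00000037586 at rank 200 averaged 563 CPM and the next gene, ENSMFAG00000033480, averaged 559 CPM. The former was among the 200 highest of 5 libraries and the latter of 9.

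ENSMFAG00000003047 (rank 1) was the highest gene in all 16 libraries. It stood at 15034, 29357, 28280 and 22874 CPM in old females 1 to 4 and at 31553, 28116, 28347 and 21749 CPM in young females 1 to 4. In old males 1 to 4 it stood at 20155, 19341, 19939 and 24559 CPM, and in young males 1 to 4 at 17316, 24321, 25361 and 26617 CPM. Old female 1 and young male 1 were the lowest, and the groups overlapped throughout. Its log2 fold change between old and young over both sexes was -0.17 (SE 0.15, edgeR adjusted p = 0.567), with a 95% interval from -0.50 to 0.16.

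ENSMFAG00000039235 (rank 2) ranged from 8561 to 18618 CPM, both ends lying in old females 1 and 4. ENSMFAG00000040839 (rank 3) ranged from 5164 to 12104 CPM, again with both ends among old females. ENSMFAG00000046417 (rank 4) ranged from 3999 CPM in old male 1 to 12425 CPM in old female 1. ENSMFAG00000045026 (rank 5) stayed between 6241 and 8058 CPM. Its SD within groups, pooled over the 4 groups, was 0.15 log2 units, against 0.30 to 0.42 for ranks 1 to 4. For ranks 2 to 5 the age difference over both sexes lay between -0.07 and 0.11 log2 units, and the smallest edgeR adjusted p was 0.720.

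**Figure D2:**
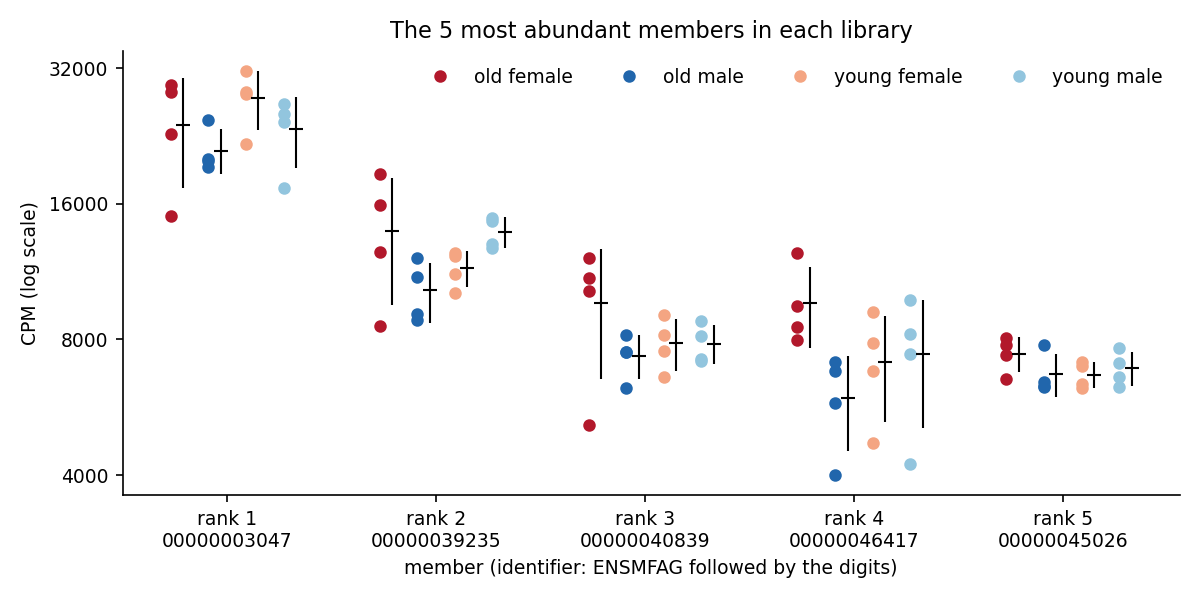
Points are CPM (log scale) of the 5 most abundant genes in each library, by group. Black bars show the mean and SD of 4 libraries. For rank 2 the 4 old males (up to 12147 CPM) lie below the 4 young males (from 12758 CPM), with an edgeR adjusted p of 0.544. Old and young males did not overlap in 4.85% of all genes tested. For rank 4 the 4 old males (up to 7139 CPM) lie below the 4 old females (from 7994 CPM), a contrast that was not tested.

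The members' median SD of log2 CPM within groups was 0.26, against 0.31 over all genes tested, most of which have fewer counts. An SD over 0.5 was found in 22 members (11%) and in 25.5% of all genes tested. The SD that counting alone gives was 0.017 log2 units at the median of the members and 0.10 at the median of all genes tested, so counting makes up little of the members' spread. Without old female 1 and old male 3, the median SD of the members was 0.24 and that of all genes 0.28. In 108 members the highest library was under 2 times the lowest, in 76 it was 2 to 4 times and in 16 at least 4 times (median 1.93).

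The steadiest members were ENSMFAG00000036500 (rank 129), from 651 to 837 CPM, and ENSMFAG00000002479 (rank 81), from 663 to 1122 CPM. Their pooled SDs were 0.087 and 0.11 log2 units.

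ENSMFAG00000040059 (rank 84) had the largest spread, an SD of 2.97 log2 units. It stood at 3618 CPM in old female 1 and 6379 CPM in old male 3, and these libraries also had the highest scores on the second component. In the other old females it stood at 322, 76.0 and 79.5 CPM, and in the other old males at 324, 540 and 4.03 CPM. Young females 1 to 4 had 24.4, 44.9, 970 and 1006 CPM, and young males 1 to 4 had 334, 56.9, 325 and 186 CPM. It owed its place among the 200 to few libraries and was among the 200 highest of only 4. Its age difference over both sexes was 2.02 log2 units with a 95% interval from -0.58 to 4.61 (edgeR adjusted p = 0.393), and over the alternatives it ran from -0.62 to 2.33, so its sign depends on the libraries and method used.

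ENSMFAG00000034188 (rank 72) came next, with an SD of 1.70 log2 units. It reached 4532 CPM in old male 1 and 4023 CPM in young male 3, against 124 to 1687 CPM in the other 14 libraries. It was among the 200 highest of 7 libraries.

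**Figure D3:**
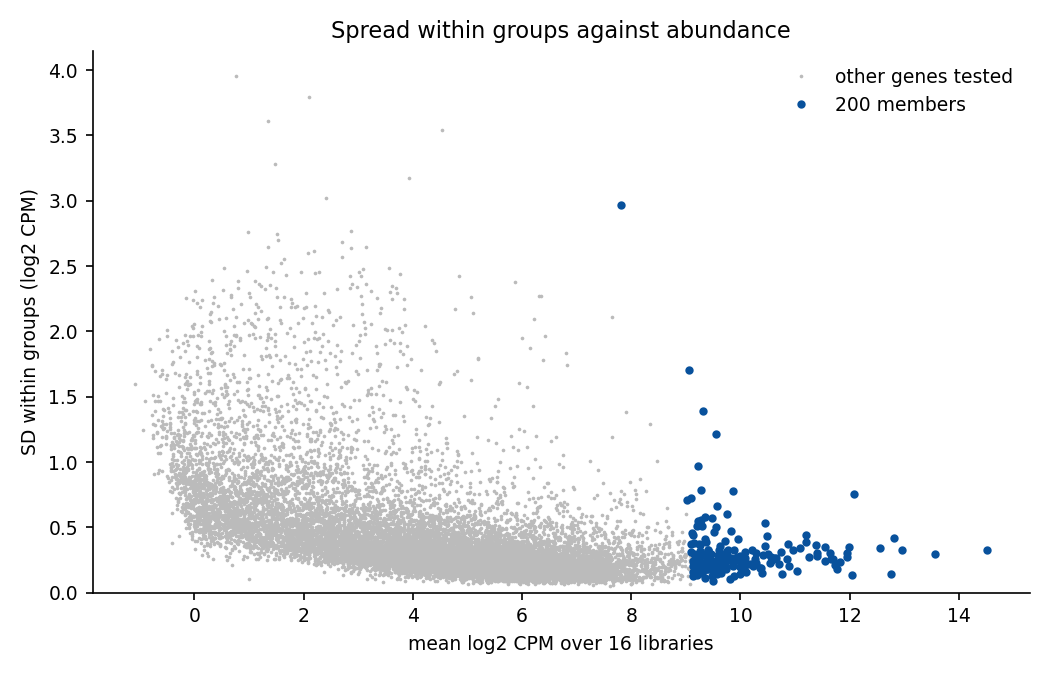
Each point is a gene tested, by its mean log2 CPM over 16 libraries and its SD of log2 CPM within groups (pooled over 4 groups). The 200 members (blue) have a median SD of 0.26, and ENSMFAG00000040059 stands out at 2.97.

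Members varied together only weakly on average between libraries of a group. Over all pairs of members, the mean correlation of their deviations from the group means was 0.124, against 0.0016 over all pairs of genes tested. Leaving out old female 1 and old male 3 gave 0.115. Leaving out 1 library at a time gave 0.0795 (without young male 1) to 0.137 (without old male 3). These values describe 16 libraries, and all genes of a library share its depth and scaling. The scaling centres each library over the genes tested, which keeps the value over all genes low, so it is not a baseline for the members. Average-linkage clustering of the deviations, stopped at a mean correlation of 0.5, put 133 members into 8 sets of 6 or more and left 67 in smaller ones. The clustering and its limit were chosen after the data were seen.

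The largest set held 57 members, from rank 16 down, and 18.1% of the members' counts. Its mean deviation was lowest in young male 1 (-0.45 log2 units) and highest in young female 1 (0.28) and old male 3 (0.24). The second set of 19 members was lowest in old male 3 (-0.39) and old female 1 (-0.24). The third set of 13 held the gene at rank 1 and was lowest in old female 1 (-0.54) and highest in old female 3 (0.53). The fifth set of 10 held the gene at rank 3 and was lowest in old female 1 (-0.68). The sixth set of 9 was lowest in old male 3 (-0.63) and old female 1 (-0.62). The seventh set of 7 stayed between -0.31 (young female 4) and 0.30 (young male 4). The eighth set of 7 was highest in old male 1 (0.78), young male 3 (0.66) and young female 1 (0.51). In 4 of the first 6 sets the lowest library was thus old female 1 or old male 3, and in the other 2 it was young male 1. The lowest library was young female 4 in the seventh set and young male 1 (-0.49) in the eighth. The members most like rank 1 over the 16 libraries were ENSMFAG00000014829 (rank 161, r = 0.809) and ENSMFAG00000003332 (rank 70, r = 0.806).

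The fourth set held 11 members, and these were all members whose identifiers lie in the last 13 numbers of the series, ENSMFAG00000046415 to ENSMFAG00000046427. The clustering had used the counts only. The 2 identifiers of that run outside the members were ENSMFAG00000046423, at rank 366 with 347 CPM, and ENSMFAG00000046419, at rank 9017 with 16.8 CPM. Adjacent numbers need not mean adjacent genes, and the positions of these genes were not used here. The 11 ranked from 4 to 94. The mean correlation between them was 0.721, and it was 0.760 without old female 1 and old male 3. Leaving out 1 library at a time gave 0.586 (without young male 1) to 0.766 (without old male 3). The run was lowest in young male 1 (mean deviation -0.65 log2 units) and young female 1 (-0.34), and highest in young male 2 (0.44) and old female 1 (0.31).

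**Figure D4:**
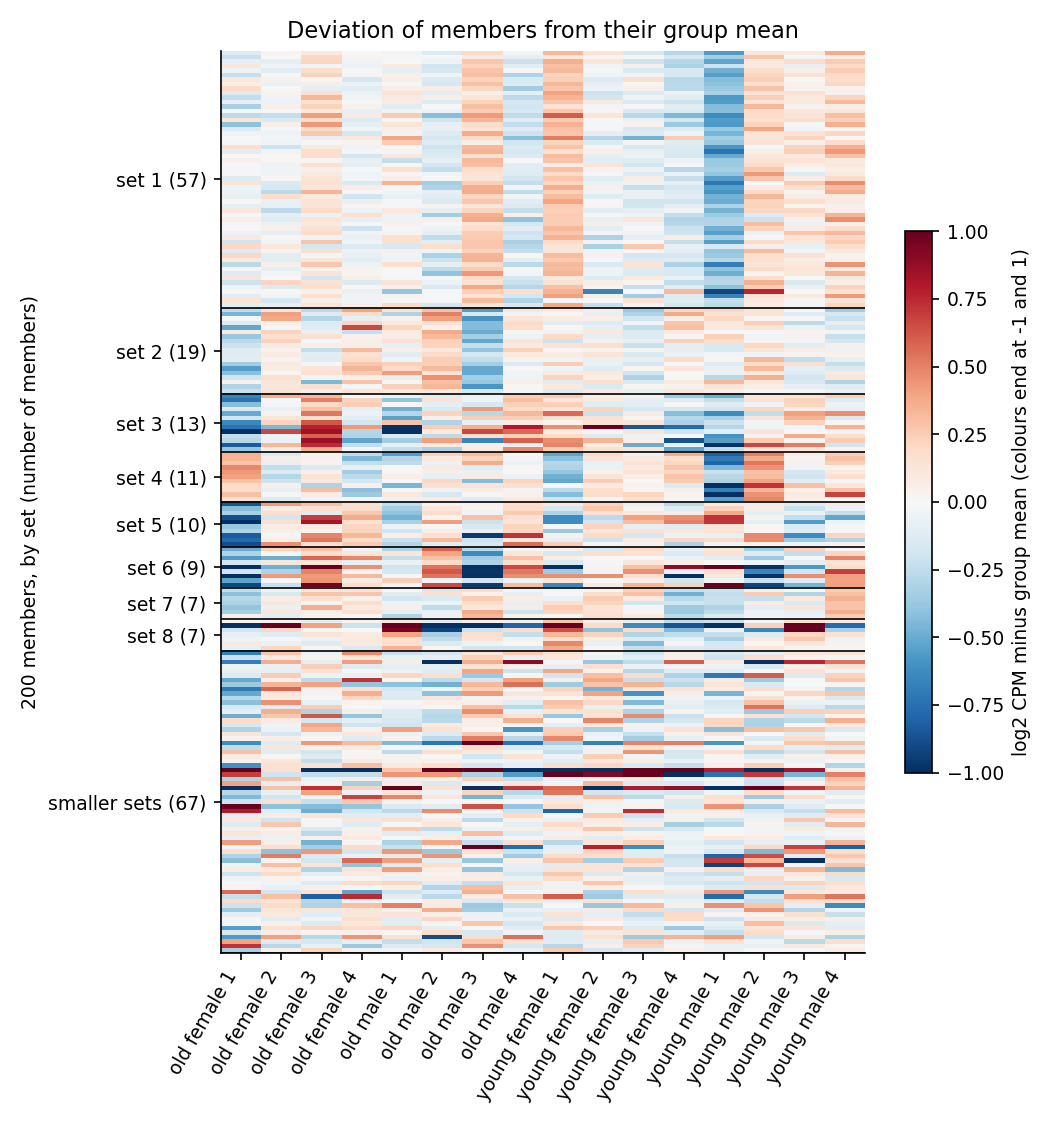
Colours give log2 CPM minus the group mean for the 200 members (rows, by set) in the 16 libraries (columns), with the colour scale ending at -1 and 1. Set 1 (57 members) is low in young male 1, and set 4 is the run of 11 adjacent identifiers, low in young male 1 and high in young male 2.

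Old lungs were first set against young lungs with both sexes weighted equally, to ask which of these genes differ with age. None of the 200 passed in edgeR's quasi-likelihood test at an adjusted p under 0.05, where 0.0582% of all genes tested did. At an unadjusted p under 0.05 there were 28 members (14%), 17 higher and 11 lower in old lungs, against a background of 17.7% (7.42% higher and 10.3% lower). At an adjusted p under 0.10 there were 3 members (1.5%), against 1.47% of all genes. DESeq2 called 10 members (5%), 8 higher and 2 lower, against 3.81% of all genes, and limma-voom called 0, against 0.123%. The old and young libraries did not separate without overlap in any member, where they did in 0.317% of genes tested. In bulk tissue, fewer cells of a type and less RNA per cell cannot be told apart.

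Averaged over the sexes, the 95% interval of the age difference lay within a 2-fold change in 187 of the 200 (80.6% of all genes tested). It lay within 1.5-fold in 160 (56.8%), but in only 106 within females and 112 within males. These intervals measure the spread between libraries, so they need not bound the difference between animals. The median log2 fold change was 0.01 over the members and 0.01 over all genes. Its median size was 0.11 in the members and 0.17 in all genes. With TMM scaling 104 members lay above 0 and 96 below, and with total counts alone 100 lay on each side.

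The member with the smallest p was ENSMFAG00000045615 (rank 97). It stood at 820, 966, 2213 and 1801 CPM in old females 1 to 4 and at 423, 705, 178 and 190 CPM in young females 1 to 4. In old males 1 to 4 it stood at 365, 1144, 1223 and 1655 CPM, and in young males 1 to 4 at 315, 348, 355 and 451 CPM. Old male 1 lay among the young libraries, and the other 7 old libraries lay above all 8 young ones. The log2 fold change was 1.77 (SE 0.36), with a 95% interval from 1.0 to 2.54 and an edgeR adjusted p of 0.0671, so it did not pass. DESeq2 gave an adjusted p of 0.000193. Without old male 1 the edgeR adjusted p was 0.0282, and without young female 2 it was 0.0495. Only 3 of 24 alternatives called this gene, those and DESeq2. Leaving out old male 1, the old library among the young ones, favours a call.

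ENSMFAG00000002481 (rank 69) had 1229 ± 208 CPM in old and 812 ± 124 CPM in young libraries (SD, n = 8 each), with ranges of 781 to 1443 and 665 to 1043 CPM. Old male 1 was again the lowest old library, and it alone lay within the young range. The log2 fold change was 0.60 (SE 0.13, edgeR adjusted p = 0.0681), and without old male 1 the edgeR adjusted p was 0.0282. Only 2 of 24 alternatives called this gene, that one and DESeq2. In the other direction, ENSMFAG00000038613 (rank 39) had 1201 ± 210 CPM in old and 1838 ± 430 CPM in young libraries (SD, n = 8 each). The highest old library (1474 CPM) lay above the lowest young one (1155 CPM). Its log2 fold change was -0.60 (SE 0.14), which edgeR gave an adjusted p of 0.0790. ENSMFAG00000046327 (rank 26) ranged from 1125 to 2648 CPM in old and from 1917 to 3382 CPM in young libraries. Its log2 fold change was -0.54 (SE 0.16, edgeR adjusted p = 0.121).

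Within females, no member passed in edgeR, where 0.0323% of all genes did. At an unadjusted p under 0.05 there were 36 members (18%), 23 higher and 13 lower in old females, against 14.5% of all genes (6.21% higher and 8.25% lower). DESeq2 called 10 members, 9 higher and 1 lower, against 2.58% of all genes, and limma-voom 0, against 0.0517%. The 95% interval lay within a 2-fold change in 165 members (67.1% of all genes) and within 1.5-fold in 106 (36.9%). Old and young females did not overlap in 19 members (9.50%), against 10.8% of all genes. ENSMFAG00000030086 (rank 45) stood at 1438, 1516, 2004 and 1368 CPM in old and at 965, 1126, 1104 and 1035 CPM in young females 1 to 4. All 4 old females lay above the 4 young ones, with a log2 difference of 0.61 (SE 0.15, edgeR adjusted p = 0.0978). ENSMFAG00000002481 differed by 0.76 log2 units in females (SE 0.18, edgeR adjusted p = 0.108). The lower members with the smallest p were ENSMFAG00000002479, at -0.34 (SE 0.10, edgeR adjusted p = 0.163), and ENSMFAG00000036717 (rank 162), at -0.44 (SE 0.14, edgeR adjusted p = 0.191).

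Within males, no member passed in edgeR, where 0.0129% of all genes did. DESeq2 and limma-voom called 0 members as well, against 0.388% and 0% of all genes. At an unadjusted p under 0.05 there were 12 members (6%), 3 higher and 9 lower in old males, against 9.06% of all genes (4.03% higher and 5.03% lower). The 95% interval lay within a 2-fold change in 185 members (70.8% of all genes) and within 1.5-fold in 112 (39.7%). Old and young males did not overlap in 8 members (4%), against 4.85% of all genes. ENSMFAG00000038613 stood at 1212, 1474, 1338 and 1221 CPM in old and at 1807, 2394, 1642 and 2446 CPM in young males 1 to 4. The 4 old males lay below all 4 young ones, with a log2 difference of -0.68 (SE 0.20, edgeR adjusted p = 0.363). ENSMFAG00000046420 (rank 19, in the run of adjacent identifiers) lay between 2121 and 2349 CPM in old and between 2885 and 3879 CPM in young males, with a log2 difference of -0.56 (SE 0.17, edgeR adjusted p = 0.398). The higher members with the smallest p in males were ENSMFAG00000045615, at 1.56 (SE 0.51, edgeR adjusted p = 0.433), and ENSMFAG00000040986 (rank 87), at 0.70 (SE 0.26, edgeR adjusted p = 0.474).

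The interaction, the age difference in males minus that in females, tested whether age differences depended on sex. edgeR called 0 of the 200 members and 0% of all genes, and the smallest adjusted p among members was 0.394. DESeq2 called 2 members, both with the lower age difference in males, against 0.381% of all genes, and limma-voom called 0. At an unadjusted p under 0.05 there were 19 members (9.50%), against 6.37% of all genes. In 14 of the 19 the age difference was lower in males (7% of members, against 3.12% of all genes) and in 5 it was higher (2.5%, against 3.25%). The 95% interval of the interaction lay within a 2-fold change in 142 members (54.5% of all genes) and within 1.5-fold in 55 (21.4%).

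The run of 11 adjacent identifiers supplied 8 of these 19 members. All 11 had higher means in old than in young females (log2 fold changes of 0.19 to 0.81, median 0.36, with a median of 0.03 over the other members). All 11 had lower means in old than in young males (-0.56 to -0.22, median -0.36, others -0.02). The median in males was -0.21 without young male 2 and -0.55 without young male 1, and 1 of the 11 lay above 0 without young male 4. The interaction was below 0 in all 11, from -1.13 to -0.49 with a median of -0.79, against -0.03 over the other members and 0.01 over all genes. The run was singled out after its values were seen, its members vary together, and none passed in edgeR at an adjusted p under 0.05, so the 11 are a description and not 11 separate results.

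Together the 11 held 5.76%, 4.08%, 4.37% and 3.76% of assigned counts in old females 1 to 4, and 2.57%, 3.64%, 3.64% and 4.10% in young females 1 to 4. They held 2.49%, 3.03%, 3.08% and 2.85% in old males 1 to 4, and 2.44%, 4.70%, 3.55% and 3.94% in young males 1 to 4. Old females had the highest mean and old males the lowest, with old females 2 and 4 below young female 4 and young male 1 below all old males. Young male 2 lay above old females 2, 3 and 4. Group means of the run were 4.49% in old and 3.49% in young females, and 2.86% in old and 3.66% in young males. Among the members outside the run the range over libraries was 21.6% to 26.7%, with old female 1 the lowest. Their group means were 25.3% in old and 24.7% in young females, and 24.7% in old and 24.9% in young males. The run's counts are part of the members' share given above, so its pattern is not a result separate from that share.

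The direction of the interaction in the run held in each of 24 alternatives, with 11 of 11 below 0 and medians between -0.95 and -0.69. The alternatives share most libraries and the 11 vary together, so this is not a separate result. The median was -0.70 without old female 1 and -0.69 without young male 2. Without young male 1 it was -0.95. ENSMFAG00000046427 (rank 10) had the smallest p. It stood at 7551, 4400, 4639 and 5002 CPM in old and at 3032, 3648, 4154 and 4759 CPM in young females 1 to 4. It stood at 3031, 3205, 2778 and 3015 CPM in old and at 3209, 5504, 4013 and 4121 CPM in young males 1 to 4. The 4 old males lay below all 4 young males, while old and young females overlapped. Its interaction was -1.01 (SE 0.27, edgeR adjusted p = 0.394, DESeq2 adjusted p = 0.0380). ENSMFAG00000046420 followed at -0.83 (SE 0.25, edgeR adjusted p = 0.464). In the other direction the smallest p belonged to ENSMFAG00000036717, at 0.62 (SE 0.20, edgeR adjusted p = 0.567), and ENSMFAG00000002279 (rank 32), at 0.83 (SE 0.30, edgeR adjusted p = 0.643).

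**Figure D5:**
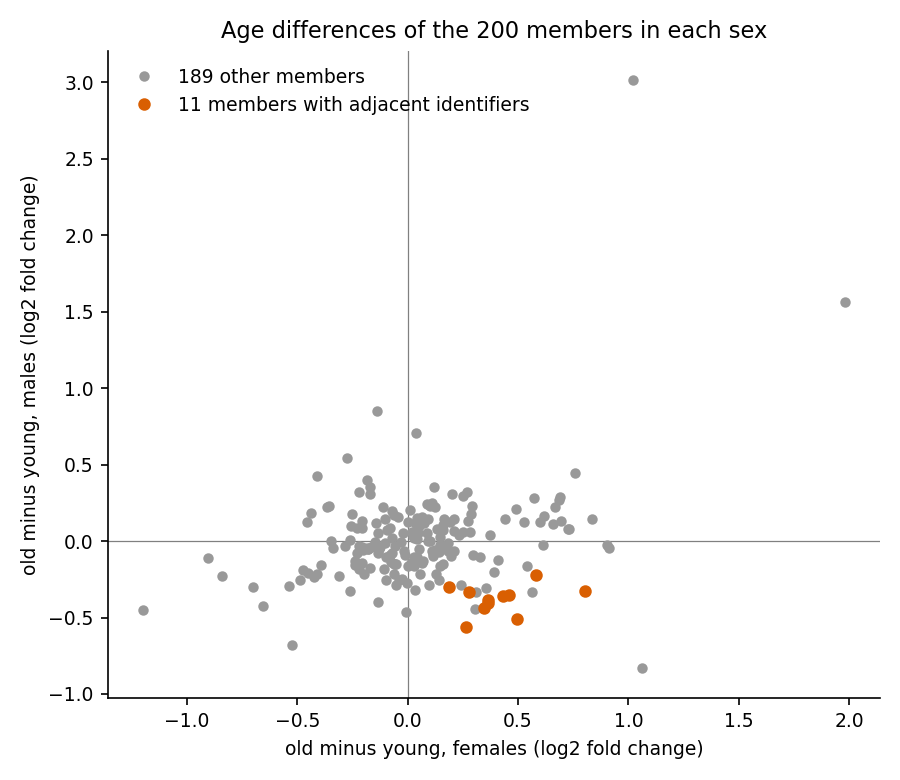
Each point is a member, by its log2 fold change between old and young females (horizontal) and old and young males (vertical). The 11 members with adjacent identifiers (orange) lie at 0.19 to 0.81 in females and at -0.56 to -0.22 in males.

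Between males and females over both ages, edgeR called 1 of the 200 members (0.5%), against 0.0323% of all genes. ENSMFAG00000038135 (rank 64) was lower in males. It stood at 1340, 1302, 1377 and 1239 CPM in old females 1 to 4 and at 1425, 1205, 1102 and 1113 CPM in young females 1 to 4. In old males 1 to 4 it stood at 794, 776, 953 and 713 CPM, and in young males 1 to 4 at 650, 931, 892 and 872 CPM. Every male library lay below every female one, a separation found in this member alone and in 0.0517% of all genes tested. Males averaged 823 ± 107 CPM and females 1263 ± 119 CPM (SD, n = 8 each). The log2 fold change was -0.65 (SE 0.10, 95% interval from -0.87 to -0.43, edgeR adjusted p = 0.0382), or 1.57-fold lower in males. The difference between the sexes in old minus that in young animals was -0.21 log2 units, with a 95% interval from -0.65 to 0.23 (edgeR adjusted p = 0.950).

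The call of ENSMFAG00000038135 held in 9 of 24 alternatives, with log2 fold changes between -0.71 and -0.59 in all of them. Leaving out any 1 of 13 libraries moved the edgeR adjusted p past the threshold, to between 0.0711 and 0.153. Leaving out old male 3, young male 1 or young male 2 kept it under the threshold. The unadjusted p was at most 5.99e-05 in any alternative.

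At an unadjusted p under 0.05 there were 5 members (2.5%) that differed between the sexes, all lower in males, against 6.3% of all genes (3.46% higher and 2.84% lower), and DESeq2 and limma-voom called 1 member each (against 0.213% and 0.0323% of all genes). ENSMFAG00000046424 (rank 48), also in the run of adjacent identifiers, had a log2 difference of -0.42 (SE 0.14, edgeR adjusted p = 0.696). The higher members with the smallest p were ENSMFAG00000041220 (rank 141), at 0.47 (SE 0.22, edgeR adjusted p = 0.794), and ENSMFAG00000038613, at 0.28 (SE 0.14, edgeR adjusted p = 0.797). The 95% interval lay within a 2-fold change in 193 of the 200 members (82.6% of all genes tested) and within 1.5-fold in 165 (62.2%). With TMM scaling 119 members lay below 0, and with total counts alone 92 did, so the side on which most members lay depends on the scaling.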

How the data were processed

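Total RNA was extracted with TRIzol and libraries were made with the NEBNext Ultra RNA kit, per the labels' protocols. The deposited files hold raw counts per gene, while no source used here names the aligner, counter, genome build or annotation. The 5 summary entries at the end of each file were left out of library sizes. They held 23.1% to 29.9% (no feature) and 1.45% to 1.86% (ambiguous) of all counts of a library, and the other 3 were 0. How reads with several matches were treated is not recorded, so genes with near-identical copies are uncertain. The kit does not mark strand, so overlapping antisense genes cannot be separated.

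CPM are counts per 1000000 assigned counts. Counts of all 15472 genes kept by filterByExpr were fitted in edgeR 4.0.16 (R 4.3.3, TMM factors 0.955 to 1.06, glmQLFit robust, 1 mean for each of the 4 groups). Benjamini-Hochberg adjustment ran over all genes, and genes were called at an adjusted p under 0.05. SDs and correlations used log2 CPM with a prior count of 2. DESeq2 1.42.0 and limma 3.58.1 were alternatives, as were fits without old female 1 and old male 3, which an earlier look at these data had shown apart from the rest. Genes named are the 5 highest members, ranks 200 and 201, per comparison the 2 members in each direction called or with the smallest p, the 2 most and 2 least variable members and the 2 most like rank 1. Those of the run of adjacent identifiers outside the members were named after their values were seen. The members and rules were chosen with earlier results of these data known. Gene lists by symbol were not run. The 24 pairs of libraries within groups differed beyond sampling noise (chi-square per degree of freedom 15.6 to 66.6).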

Additional observations from a re-analysis of the deposited data

Results flagged for a closer look

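Dixon's test was applied to 120 groups of 4 values, and 15 held a library far from the other 3, where chance gives about 1 in 20. The values include members named for their large spread, and all groups come from the same 16 libraries, so the 15 do not measure an excess over chance. Young male 1 had the lowest share of counts in the 200 members (25.8%) and the highest share of reads assigned to no feature (29.9%) of its group. Young female 1 had the fewest members among its own 200 highest genes (174, the other 3 each 181).

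ENSMFAG00000040059 was far above the rest of the group in old female 1 (3618 CPM) and in old male 3 (6379 CPM). ENSMFAG00000034188 was so in old male 1 (4532 CPM) and in young male 3 (4023 CPM). Old male 4 was high in ENSMFAG00000003047 (24559 CPM) and ENSMFAG00000037586 (854 CPM), and old male 3 in ENSMFAG00000045026 (7784 CPM).

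Low values were found for ENSMFAG00000002479 in old female 3 (663 CPM), ENSMFAG00000003332 in old male 2 (863 CPM), ENSMFAG00000046327 in young female 2 (2108 CPM), ENSMFAG00000036717 in young female 1 (549 CPM) and ENSMFAG00000014829 in young female 4 (342 CPM).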

How the results depend on the processing

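DESeq2 called 10 members for age over both sexes, 10 for age in females and 2 for the interaction, against 0 in edgeR. For sex, 0 members were called with no count filter and 0 with the replicate block, against 1. Leaving out 1 library at a time gave 0 to 2 members for age over both sexes (2 without old male 1 and 1 without young female 2) and 0 to 1 for sex, and 0 for age in females, age in males and the interaction. The old minus young difference in share ranged from -0.121 (without young male 1, the 1 reversal) to 0.754 points. Of 137 recomputed counts of called members, 117 were within 1.5 times the main count, which was 0 in every comparison but sex. All 480 recomputed fold changes of members named by comparison kept their sign. Those members were named for their small p and the alternatives reuse most libraries, so kept signs are not a separate result. The difference in share in females was 1.27 to 2.49 points with 1 library left out, and that in males -1.89 to -0.639 points. The age difference in share in males minus that in females was -3.54 to -2.25 points with 1 library left out. Dropping both old female 1 and old male 3, the difference in females was 2.49 points and that between the sexes' age differences -3.90 points (exact permutation p = 0.0286 and 0.0122). With young male 1 left out as well, the values were 2.49 and -4.81 points (exact permutation p = 0.0286 and 0.00143). The settings for each sex and for the difference between the sexes' age differences, and all without young male 1 as well, were chosen after seeing the data.

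The replicate numbers of the titles showed no sign of pairing libraries, though so few pairs cannot exclude it. The correlation of deviations over 24 same-numbered pairs was -0.459 to 0.413 (median 0.0029, 5 over 0.1). The median over 72 pairs with different numbers was 0.0031. Of the 16 libraries, 3 correlated best with their own number. With the replicate block, 0 members were called in each comparison, and the share differences stayed at 0.335 and -0.974 points (exact sign-flip permutation p = 0.672 and 0.258). Counting alone gave the members a median SD of 0.017 log2 units, against 0.26 within groups. It thus made up little of their spread, though 4 members had fewer than 1000 counts in some library. What else limits the precision was not tested.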
